A study of Mus musculus with 47 samples.

Results

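Suv39h1ER lymphoma cultures treated with Adriamycin and 4OHT were compared with the same cultures left untreated (native). The members were taken from the labels, by the genotype Suv39h1- plus Suv39h1ER and by treatment, and paired by the culture named in each title (SuvER-4146, SuvER-4936 and SuvER-5043). They are 6 of the 47 arrays of the series, 3 with Adriamycin and 4OHT and 3 native. All were mouse primary B-lineage lymphoma cells, taken from the lymph nodes of mice with the Emu-myc transgene, which expresses c-Myc in the B lineage, and transduced with a Bcl2 retrovirus and selected with puromycin for 48 h. They were grown on gamma-irradiated (20 Gy) NIH 3T3 fibroblast feeders, and their RNA was measured on Affymetrix mouse arrays.

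The groups were Suv39h1ER cells given 0.05 µg/ml Adriamycin (ADR) for 5 days with 4OHT (labelled senescent), Suv39h1ER cells given ADR alone for 5 days (3 arrays, labelled non-senescent) and Suv39h1ER native cells (labelled non-senescent). All 3 groups carry the Suv39h1- background and the Suv39h1ER construct. The comparisons outside the Suv39h1ER cultures were WT lymphomas (14 with ADR for 5 days, senescent by label, and their 14 native partners) and Suv39h1- lymphomas (5 with ADR for 5 days, non-senescent by label, and 5 native partners). Each culture gave 1 array per condition, and 4OHT alone was not analysed here, so the parts of ADR, of 4OHT as a drug and of the fusion protein in the change from native cells cannot be told apart.

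Senescence is a lasting exit from the cell cycle in which cells stay metabolically active, enlarge their lysosomes and secrete cytokines, chemokines and proteases. Suv39h1 is a histone methyltransferase that places the H3K9me3 mark, which holds chromatin compact, and in Myc-driven lymphomas it is known for its part in drug-induced senescence. A fusion with a modified estrogen receptor ligand-binding domain is kept inactive until 4-hydroxytamoxifen (4OHT) is added. Adriamycin (doxorubicin) is a topoisomerase poison that breaks DNA. The comparison addresses which transcripts differ between cells that carry the inducible enzyme and were given both agents and the same cells before treatment. The level of Suv39h1 itself was not analysed here.

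The identity of the cultures was checked first, because pairing rests on it. On 200 probe sets that mark individual lymphomas, chosen on the 19 other cultures, the paired arrays of a culture correlated at 0.54 or more there (median 0.77), and arrays of different cultures had a median of -0.051. The array labelled SuvER-4146 ADR with 4OHT had r = -0.28 with the SuvER-4146 native array, and its highest r with any of the other 46 arrays was 0.31. Its level of Xist, the RNA that coats the inactive X chromosome, was 6.11, against 9.60 in its native partner, whereas the largest Xist difference inside any of the 19 other cultures was 2.11 (log2). The SuvER-4936 and SuvER-5043 arrays with ADR and 4OHT had r = 0.89 with each other, and their native arrays had r = 0.80. Of 684 pairs of arrays from different cultures among the other 19, 6 reached 0.8, the highest at 0.914. The array labelled SuvER-4936 ADR alone had r = -0.24 with the array of that culture given ADR and 4OHT and -0.42 with its native array. The series also holds a Suv39h1- lymphoma numbered 4936 and a WT lymphoma numbered 5043, and this ADR array had its highest r, 0.51, with the ADR array of Suv39h1- lymphoma 4936. The SuvER-4936 arrays with ADR and 4OHT and native had r of -0.022 and 0.062 with that array, and their highest r was with SuvER-5043. The labels do not settle which of the arrays named SuvER-4936 are that lymphoma. The Xist level of the SuvER-4936 ADR array was 11.5, against 6.27 in the array with ADR and 4OHT and 5.86 in the native array. The labels' pairing was kept, and the counts, the lists, the largest changes and the differences from other lymphomas are also given without SuvER-4146. In every change given for SuvER-4146, the treatment and the identity of the lymphoma cannot be told apart. The cultures SuvER-4936 and SuvER-5043 may not be independent. The p-values count them as separate cultures and would then be too small.

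**Figure D1:**
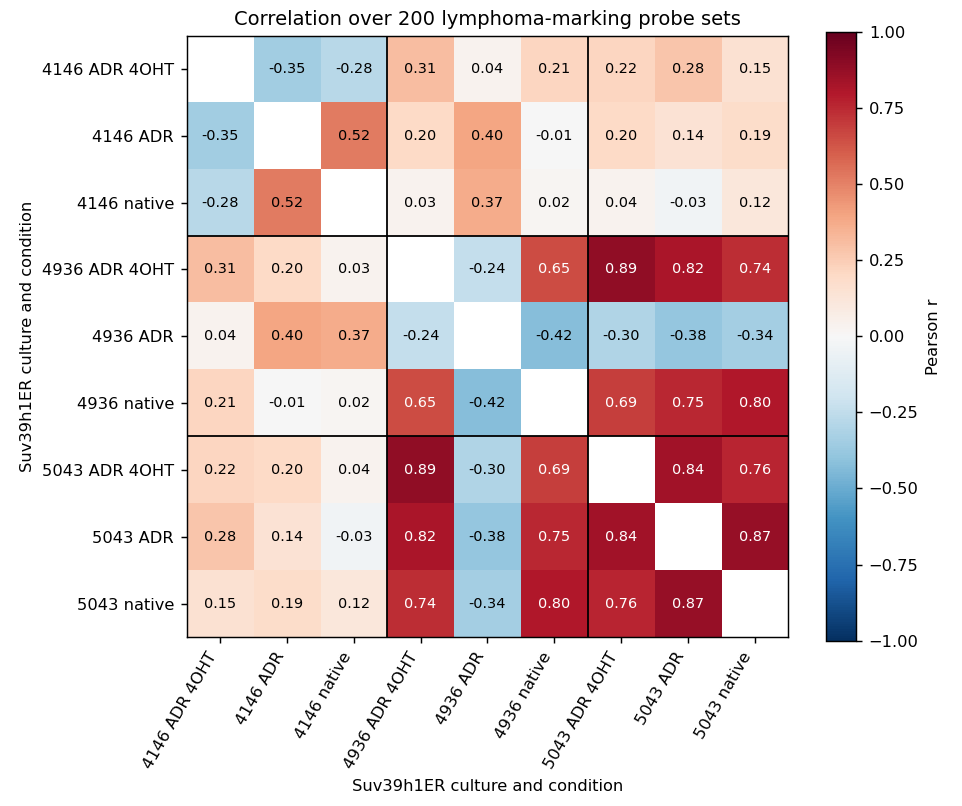
Pearson correlation (colour and printed value) between the 9 Suv39h1ER arrays over 200 lymphoma-marking probe sets, each centred on its mean over all 47 arrays; rows and columns are cultures in the conditions ADR with 4OHT, ADR alone and native. The SuvER-4146 array with ADR and 4OHT stands apart from its native partner (r = -0.28), while the SuvER-4936 and SuvER-5043 arrays with ADR and 4OHT correlate at 0.89.

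The cells expressed B-lineage genes in both conditions. Cd79b, a signalling chain of the B-cell receptor, had log2 levels of 11.06, 10.46 and 10.50 in ADR with 4OHT (SuvER-4146, SuvER-4936 and SuvER-5043, the order used throughout) and 10.81, 10.13 and 10.29 in native cells. Its mean level stood at the 97.5th percentile of all genes, and that of Pax5, the factor that fixes B-cell identity, at the 45.7th. Cd79a, Ms4a1 and Ebf1 stood at percentiles of 87.2, 75.2 and 72. Ms4a1 varied between cultures, with 8.57, 6.71 and 6.56 in ADR with 4OHT and 8.80, 4.25 and 5.75 in native cells. The medians of the arrays were 4.37 to 4.40 in ADR with 4OHT and 4.35 to 4.37 in native cells. The difference between 3′ and 5′ probe sets of Actb, a sign of RNA length, was 0.88 to 0.92 in ADR with 4OHT and 0.91 to 1.39 in native cells, the highest in SuvER-4936 native. Its part in the results was not tested.

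Across 18194 genes, 251 rose with ADR and 4OHT (1.38% of those tested) and 286 fell (1.57%) at an adjusted p under 0.05 in a limma model with the culture as a block. The median change of all genes was -0.0085 (log2, ADR with 4OHT minus native), and 218 of the 537 called genes changed by at least 1 log2 unit. Of the 537, 533 moved the same way in all 3 cultures and 527 had groups that did not overlap. Over all genes, whether called or not, 17.5% moved up and 19.2% moved down in all 3 cultures, and 22.5% had groups that did not overlap. The called genes that rose had median changes of 0.83, 1.14 and 0.84 in SuvER-4146, SuvER-4936 and SuvER-5043, and those that fell had medians of -0.76, -0.97 and -0.88.

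These counts lean on the spread of the WT and Suv39h1- lymphomas, which share the fit. With the 9 Suv39h1ER arrays alone 12 genes passed, and with the 6 arrays alone limma called 0, although 2650 had an unadjusted p under 0.05. Without the block for culture 267 genes passed. Without SuvER-4146, 154 genes rose (0.846%) and 172 fell (0.945%), and 221 of these 326 were also among the 537, all in the same direction. Without SuvER-4936 the count was 90, without SuvER-5043 it was 162, and with the arrays of SuvER-4936 and SuvER-5043 averaged as 1 culture it was 58. Over all genes the changes of SuvER-4936 and SuvER-5043 correlated at 0.55, while those of SuvER-4146 correlated with them at 0.25 and 0.27. Genes are not independent replicates, so these correlations describe the arrays.

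The largest fall was that of H1f4, which encodes a linker histone made mainly during DNA replication. Its log2 levels were 2.23, 2.61 and 2.51 in ADR with 4OHT and 5.18, 6.17 and 5.09 in native cells. All 3 treated arrays lay below all 3 native arrays, near the low end of the measured range. The change was -3.03 ± 0.31 (SE, n = 3 cultures, adjusted p = 5.42e-06), and it was called without SuvER-4146 (adjusted p = 0.000237) and with SuvER-4936 and SuvER-5043 averaged. Of 6 linker histone genes measured, H1f4 was the called one, and it was singled out after its value was seen. H1f4 lies on chromosome 13 from 23621777 to 23622558 (GRCm38.p6), and the 150 bases before its start are shown because it had the largest fall. Capitals mark the match to the CCAAT box (letters CCAAT, searched on both strands), 52 bases before the start. Such a match lay in this window in 24.5% of all promoters of the RefSeq table, in 33.8% of those of the genes that fell and in 19.8% of those of the genes that rose, and a match describes letters and not a bound site.
H1f4 promoter, chr13:23622559-23622708, minus strand: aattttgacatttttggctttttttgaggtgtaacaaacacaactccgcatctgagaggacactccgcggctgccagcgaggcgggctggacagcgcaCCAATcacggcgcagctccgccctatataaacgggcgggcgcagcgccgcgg

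The other large falls were in genes of varied roles. Rasgrp2, an exchange factor that activates Rap GTPases, had 5.50, 5.43 and 5.03 in ADR with 4OHT and 7.99, 8.76 and 7.66 in native cells, a change of -2.82 ± 0.38 (SE, adjusted p = 0.000388). Poc1b, a centriole protein, had 4.56, 4.84 and 4.74 against 6.51, 6.73 and 6.55 in native cells, a change of -1.89 ± 0.19 (SE, adjusted p = 5.42e-06). In Poc1b the treated arrays differed from each other by less than 0.3 and so did the native arrays. Cenpp, a centromere protein, fell by 2.24 and Ska1, which ties kinetochores to microtubules, fell by 2.15. Rad54b, a recombination repair factor, fell by 2.13, and Nrm, a protein of the inner nuclear membrane, fell by 2.09. Cox6a2, a subunit of cytochrome c oxidase, fell by 2.77, Acss1, a mitochondrial acetyl-CoA synthetase, by 2.05, and Klf2, a quiescence-linked transcription factor of lymphocytes, by 1.81. Efhd1 and Ccdc34 completed the 12 largest falls, at -1.84 and -1.81. Of these 12 genes, H1f4, Rasgrp2, Acss1, Poc1b, Efhd1 and Ccdc34 passed without SuvER-4146, and H1f4, Rasgrp2 and Poc1b passed with SuvER-4936 and SuvER-5043 averaged. Ska1, Nrm and Acss1 each had another probe set with a change near 0. Other probe sets fell less in Ccdc34 (-0.18), Cenpp (-0.27), Rasgrp2 (-0.35) and Poc1b (-0.67).

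**Figure D2:**
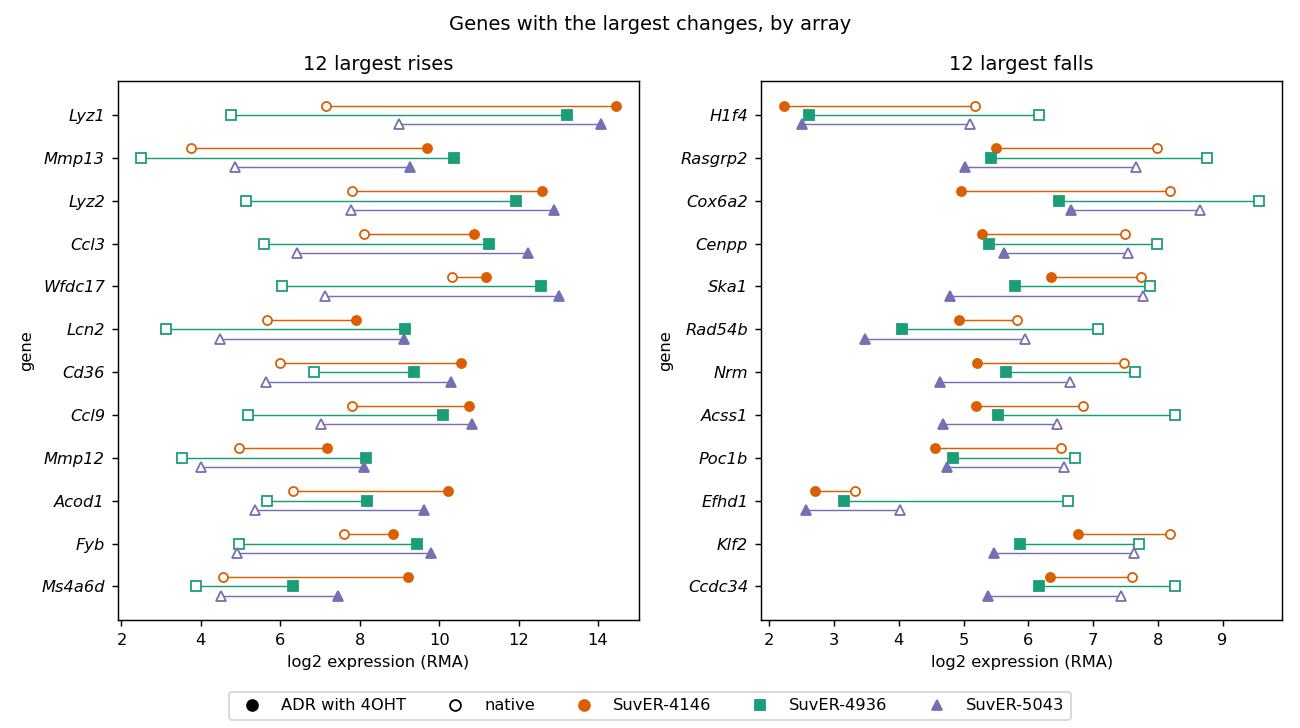
Log2 expression (RMA) of the 12 genes with the largest rises (left) and the 12 with the largest falls (right) among called genes with 1 direction in all 3 cultures; filled symbols are ADR with 4OHT, open symbols native, joined within a culture. The 3 filled symbols of H1f4 lie between 2.23 and 2.61 and its open symbols between 5.09 and 6.17, while Wfdc17 in SuvER-4146 starts from a native level of 10.32.

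DNA replication genes were lower, and more so in SuvER-5043 than in the other cultures. Of 34 genes that form or feed the replication fork, 7 fell and 0 rose, and 27 were lower in all 3 cultures. The median change was -0.94, against -0.0085 over all genes, and the mean change was -0.39, -0.93 and -1.59 in the 3 cultures. Tk1, the thymidine kinase of S phase, had 7.56, 7.11 and 6.70 in ADR with 4OHT and 8.79, 8.93 and 8.99 in native cells, a change of -1.78 ± 0.40 (SE, adjusted p = 0.0177). The native arrays agree within 0.2 and all treated arrays lie below them. Gins1, a subunit of the replicative helicase, fell by 1.69 (adjusted p = 0.014), Pold1, the catalytic subunit of polymerase delta, by 1.48 (adjusted p = 0.021), and Pcna, the sliding clamp, by 1.09 (adjusted p = 0.021). Rfc4, Lig1 and Gins4 made up the rest of the 7. Without SuvER-4146, 6 of the 34 fell. An unadjusted p under 0.05 in limma was reached by 28 of the 34, and by 30 without SuvER-4146.

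Mitotic genes were lower in every culture on average. In limma 30 of 43 had an unadjusted p under 0.05, and 38 did without SuvER-4146. Fewer passed after adjustment, beside 1.57% of all genes that fell. Of 43, 2 fell, Smc4, a condensin subunit (-1.41 ± 0.37, SE, adjusted p = 0.0399), and Aurkb, the kinase of the chromosomal passenger complex (-1.67 ± 0.46, SE, adjusted p = 0.0452). The mean change was -0.24 in SuvER-4146, -1.40 in SuvER-4936 and -1.87 in SuvER-5043, and 34 of the 43 were lower in all 3. Aurkb had 8.35, 7.74 and 6.93 in ADR with 4OHT and 9.09, 9.65 and 9.30 in native cells, and the small gap was in SuvER-4146. Mki67, the proliferation antigen Ki-67, showed the same order, with 10.41, 9.34 and 8.69 in ADR with 4OHT and 10.80, 11.46 and 10.93 in native cells, and did not pass (-1.59, adjusted p = 0.0957). Without SuvER-4146, 6 of the 43 passed, all lower, among them Bub1b, a spindle checkpoint kinase (adjusted p = 0.0377). In the 150 bases before the start, 35.1% of the promoters of this list held the letters TTTGAA of the cell cycle genes homology region and 73% held CCAAT, against 9.07% and 24.5% of all promoters, each searched on both strands. Among promoters of all genes that fell, TTTGAA lay in 6.83%.

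DNA repair genes were also lower, with 6 of 21 called and 17 lower in all 3 cultures (median -1.03). Fanci, a Fanconi anemia protein that marks stalled forks, had 6.52, 5.94 and 5.41 in ADR with 4OHT and 6.95, 7.55 and 7.33 in native cells, a change of -1.32 ± 0.26 (SE, adjusted p = 0.00825). The treated arrays again ran lowest in SuvER-5043. Another probe set of Fanci changed by -0.18. Bard1, a ubiquitin ligase subunit of recombination repair, fell by 1.06 (adjusted p = 0.0243), and Chek1, the checkpoint kinase, by 1.41 (adjusted p = 0.0459). Without SuvER-4146 the count was 5. An unadjusted p under 0.05 in limma was reached by 16 of the 21, with or without SuvER-4146.

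Among genes of cell cycle arrest and the nuclear lamina, 2 of 20 passed, both lower. Rbl1, the pocket protein p107, which cycling cells express, fell by 1.43 (adjusted p = 0.02). The changes of its 4 probe sets ran from -2.01 to -0.26. Cdkn1b, the inhibitor p27, had 7.96, 7.84 and 7.45 in ADR with 4OHT and 8.60, 9.46 and 8.39 in native cells, a change of -1.07 (adjusted p = 0.0476) that did not pass without SuvER-4146 (adjusted p = 0.0738). The genes Cdkn1a, Cdkn2a, Lmnb1, Hmgb2, Cdkn2b and Glb1, often used as senescence markers, did not pass. Cdkn1a, the p53-induced inhibitor p21, had 10.37, 11.77 and 11.84 in ADR with 4OHT and 9.54, 11.12 and 11.22 in native cells, higher in each culture by 0.62 to 0.83, with a change of 0.70 (adjusted p = 0.466). Cdkn2a, which encodes p16 and p19Arf, had 7.20, 5.57 and 2.36 in ADR with 4OHT and 6.57, 2.70 and 4.66 in native cells, so its direction differed between cultures (0.40, adjusted p = 0.932). Lmnb1 (lamin B1), which senescent cells often lose, changed by -0.79 (adjusted p = 0.368) and Hmgb2, a chromatin protein lost early in senescence, by -1.23 (adjusted p = 0.0916). Cdkn2b, the inhibitor p15, changed by 0.93 (adjusted p = 0.634), and Glb1, the enzyme behind senescence-associated beta-galactosidase staining, by 0.41 (adjusted p = 0.389). Of 29 p53 target genes 0 passed in limma (9 at an unadjusted p under 0.05), at a median change of 0.39. Of the 29, 14 were higher and 3 lower in all 3 cultures. Ddb2, which had the smallest p of the list, was among the lower ones, with 6.91, 6.12 and 5.28 in ADR with 4OHT. Its native levels were 7.62, 7.94 and 7.49 (-1.58, adjusted p = 0.0712). Trp53inp1, an autophagy and stress protein, had 12.36, 12.55 and 12.62 in ADR with 4OHT and 10.60, 11.68 and 11.84 in native cells (1.13, adjusted p = 0.0794). The driver genes gave a change of 0.15 for Myc (adjusted p = 0.928) and -0.87 for Bcl2 (adjusted p = 0.344).

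Among the largest rises were genes for lysozyme, secreted proteases and chemokines. Of the 12 largest, 10 passed without SuvER-4146, all but Acod1 (adjusted p = 0.0596) and Ms4a6d (adjusted p = 0.079). Without SuvER-4936 9 passed, without SuvER-5043 7, and with those cultures averaged 8. Mmp13, a collagenase, had 9.68, 10.36 and 9.26 in ADR with 4OHT and 3.74, 2.50 and 4.85 in native cells, a change of 6.07 ± 0.80 (SE, adjusted p = 0.000297). Ccl3, a chemokine for monocytes and T cells, had 10.87, 11.26 and 12.22 in ADR with 4OHT and 8.09, 5.59 and 6.41 in native cells, a change of 4.75 ± 0.63 (SE, adjusted p = 0.000297). In both genes the groups are far apart in every culture. Mmp12, the macrophage elastase, rose by 3.65 (adjusted p = 0.0124), and Ccl9, a chemokine of the same cluster as Ccl3, by 3.87 (adjusted p = 0.00356). Il6, a cytokine of the senescence-associated secretome, had 6.53, 6.17 and 7.36 in ADR with 4OHT and 4.33, 3.67 and 4.12 in native cells, a change of 2.64 ± 0.59 (SE, adjusted p = 0.0164). Every treated array exceeded every native array for Il6. Of 44 genes of the secretory list 7 rose and 0 fell, the others being Ccl5, Cxcl2 and Icam1, and the list's median was 0.38. Ccl5, a chemokine also induced by interferon, rose by 4.22, 2.38 and 0.73 in the 3 cultures. Without SuvER-4146, 5 of the 44 rose, and Ccl5, Cxcl2 and Icam1 were not among them (adjusted p = 0.212, 0.0629 and 0.0673). The 150 bases before the start of Il6 (chromosome 5) are shown because Il6 is the textbook secretory target of NF-kB. Capitals mark the single match to the kappa B letters GGANTTTCC (both strands searched), 43 bases before the start, which 0.688% of all promoters hold in this window.
Il6 promoter, chr5:30012964-30013113, plus strand: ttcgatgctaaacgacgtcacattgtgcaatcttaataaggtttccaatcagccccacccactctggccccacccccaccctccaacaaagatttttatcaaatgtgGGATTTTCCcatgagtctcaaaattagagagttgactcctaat

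Some genes of myeloid cells rose with the secretory genes. Lyz2, the lysozyme of macrophages and granulocytes, had 12.59, 11.92 and 12.90 in ADR with 4OHT and 7.79, 5.13 and 7.77 in native cells, a change of 5.57 ± 0.81 (SE, adjusted p = 0.000844). Lyz1, its neighbour on chromosome 10 and a close paralog whose probes may not separate the pair, had 14.44, 13.22 and 14.06 against 7.14, 4.76 and 9.0 in native cells (6.94 ± 0.83, SE, adjusted p = 8.14e-05), while another of its probe sets changed by 0.25. Both genes were high in all 3 treated arrays. Mpeg1, the pore-forming perforin-2 of phagocytes, rose by 2.88 (adjusted p = 0.00586). These 3 were the called genes among 23 macrophage markers, whose median change was 0.17 and whose mean level was 6.07 to 6.33 in ADR with 4OHT and 4.74 to 5.39 in native cells. Csf1r, the receptor that macrophages depend on, had 8.26, 7.69 and 8.26 in ADR with 4OHT and 7.02, 5.94 and 5.93 in native cells (adjusted p = 0.19). Adgre1, a macrophage surface receptor, had 6.44, 5.09 and 5.14 in ADR with 4OHT and 4.97, 4.98 and 4.22 in native cells (adjusted p = 0.63). The complement genes C1qa, C1qb and C1qc, made by tissue macrophages, stayed between 3.14 and 3.90 in all 6 arrays. Without SuvER-4146, 4 of the 23 rose, Tyrobp being added. The part of these markers in the secretory and lysosomal changes was not tested, and in such bulk RNA fewer cells of a type and less RNA per cell cannot be told apart.

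The remaining genes of the 12 largest rises follow. Cd36, a scavenger receptor for lipids, had 10.55, 9.38 and 10.29 in ADR with 4OHT and 5.99, 6.85 and 5.63 in native cells, a change of 3.92 ± 0.61 (SE, adjusted p = 0.00171). Lcn2, which binds siderophores of bacteria, had 7.91, 9.13 and 9.11 against 5.66, 3.13 and 4.48 in native cells (4.29 ± 0.71, SE, adjusted p = 0.00254). Lcn2 was the called gene of 12 neutrophil markers (median change 0.056), among which Elane, Mpo, Ngp and Camp stayed at 2.96 to 4.32 in all 6 arrays. Mmp8, a neutrophil collagenase on the same list, had 6.15, 6.66 and 7.11 in ADR with 4OHT and 5.42, 3.45 and 3.66 in native cells and did not pass (2.46, adjusted p = 0.158), and S100a8, a calcium-binding protein of neutrophils, changed by 1.52 (adjusted p = 0.397). Acod1, the enzyme that makes itaconate, rose by 3.56 (adjusted p = 0.0151), and Fyb, an adapter of immune receptor signalling, by 3.54 (adjusted p = 0.0121). Acod1 did not pass without SuvER-4146 (adjusted p = 0.0596) or without SuvER-5043 (adjusted p = 0.123), and Fyb did not pass without SuvER-4936 or without SuvER-5043. Wfdc17, a whey acidic protein family gene, had 11.18, 12.56 and 13.00 in ADR with 4OHT and 10.32, 6.03 and 7.11 in native cells, so SuvER-4146 was already high without treatment. Ms4a6d, a membrane protein of the Ms4a cluster, rose by 3.34, and another of its probe sets changed by 0.089.

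Of 32 fibroblast genes 0 passed in limma (2 at an unadjusted p under 0.05), with 12 higher in all 3 cultures and a median change of 0.26, at mean levels of 4.70 to 5.21 in ADR with 4OHT and 4.30 to 4.66 in native cells, and the mean change was 0.91 in SuvER-4936, against 0.10 and 0.31 in SuvER-4146 and SuvER-5043. Col1a1 and Col3a1, which fibroblasts express strongly, stayed between 2.32 and 4.13 in all 6 arrays. S100a4, a calcium-binding protein also made by myeloid cells, had 8.54, 10.44 and 10.03 in ADR with 4OHT and 11.10, 5.84 and 6.64 in native cells, so its direction differed between cultures (adjusted p = 0.32, and 0.0134 without SuvER-4146). Acta2, smooth muscle actin, was higher in all 3 cultures (1.09, adjusted p = 0.294). Of 12 natural killer markers Fcer1g rose (2.17, adjusted p = 0.0299), a signalling chain that myeloid cells also express. None of 18 T-cell, 7 erythroid, 13 endothelial and 14 plasma cell markers passed in limma, with 5, 1, 0 and 1 of them at an unadjusted p under 0.05. Rag2, the recombinase of B-cell precursors, was the called gene of 15 precursor markers. It had 3.98, 3.66 and 3.90 in ADR with 4OHT and 4.04, 5.89 and 6.18 in native cells, so its fall of 1.52 (adjusted p = 0.0164) came from SuvER-4936 and SuvER-5043. Of 21 B-cell identity genes 0 passed in limma (5 at an unadjusted p under 0.05), at a median of 0.18.

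Lysosomal genes were higher in all 3 cultures, by similar amounts on average. Of 30, 8 rose and 0 fell, 21 were higher in all 3 cultures, and the median change was 0.66. The mean change was 0.54, 0.71 and 0.78 in the 3 cultures. Lamp1, a main protein of the lysosomal membrane, had 11.08, 11.00 and 11.13 in ADR with 4OHT and 10.01, 9.70 and 9.88 in native cells, a change of 1.21 ± 0.19 (SE, adjusted p = 0.00171). The groups are separated by nearly a log2 unit, and each spans far less than that. Tpp1, a lysosomal peptidase, rose by 1.30 (adjusted p = 0.00368), Atp6ap1, an accessory protein of the proton pump, by 0.89 (adjusted p = 0.00912), and Mcoln1, a lysosomal calcium channel, by 0.85 (adjusted p = 0.00953). Atp6v0d1, another proton pump subunit, rose by 0.98, the proteases Ctsd and Ctss by 1.55 and 1.02, and Lgmn by 0.95. Without SuvER-4146, 7 of the 30 rose. The 150 bases before the start of Lamp1 (chromosome 8) are shown because it had the smallest p of the list. Capitals mark 4 matches to CACGTG, the E-box core that MYC and the lysosomal regulator TFEB can bind, 61, 45, 28 and 15 bases before the start. At least 1 such match lay in this window in 25% of the promoters of the list, in 9.38% of those of genes that rose and in 4.3% of all promoters.
Lamp1 promoter, chr8:13159011-13159160, plus strand: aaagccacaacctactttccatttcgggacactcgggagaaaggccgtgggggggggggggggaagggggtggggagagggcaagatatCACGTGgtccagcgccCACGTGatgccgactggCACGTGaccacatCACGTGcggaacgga

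Of 25 autophagy genes 2 rose. Map1lc3b (LC3B), which coats autophagosomes, had 10.74, 11.01 and 11.17 in ADR with 4OHT and 10.24, 10.16 and 10.15 in native cells, a change of 0.79 ± 0.14 (SE, adjusted p = 0.00378). The native arrays agree within 0.1, and all treated arrays lie above them. Map1lc3b has 4 probe sets, whose changes ran from -0.38 to 0.79, so they did not all rise. Sqstm1 (p62), a cargo receptor, rose by 1.23 (adjusted p = 0.0141) and did not pass without SuvER-4146 (adjusted p = 0.0875). The list's median was 0.20.

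Of 19 genes of the NF-kB pathway 3 rose, and 13 were higher in all 3 cultures (median 0.34). Rela, the transactivating p65 subunit, had 9.20, 8.83 and 9.20 in ADR with 4OHT and 8.57, 8.0 and 8.50 in native cells, a change of 0.72 ± 0.14 (SE, adjusted p = 0.00794). Traf1, a signalling adapter and NF-kB target, rose by 1.97 (adjusted p = 0.0262) and Nfkb2 by 0.59 (adjusted p = 0.0388). Another probe set of Nfkb2 changed by -0.017. Without SuvER-4146 Rela alone passed (adjusted p = 0.0261).

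Interferon-stimulated genes were higher on average in all 3 cultures, and most in SuvER-4146. Of 31, 3 rose, and the mean change was 1.59 in SuvER-4146, against 0.46 and 0.47 in SuvER-4936 and SuvER-5043. Gbp2, an interferon-induced GTPase, had 10.80, 8.27 and 8.42 in ADR with 4OHT and 5.58, 6.48 and 7.08 in native cells, a change of 2.78 ± 0.63 (SE, adjusted p = 0.0176). The rise was 5.22 in SuvER-4146, against 1.79 and 1.34 in the other cultures. The treated SuvER-4146 array did not match its native partner, so treatment and lymphoma identity cannot be told apart there. Trim30a rose by 1.58 (adjusted p = 0.00899) and Xaf1 by 1.59 (adjusted p = 0.0468). Another probe set of Xaf1 changed by 0.23. Without SuvER-4146 none of the 31 passed in limma (adjusted p = 0.0928 for Trim30a, 0.272 for Gbp2 and 0.509 for Xaf1; 4 of the 31 had an unadjusted p under 0.05), while the list's median was 0.39, against 0.66 with it. The 150 bases before the start of Gbp2 (chromosome 3) are shown as an example of a promoter of this list. Capitals mark the match to the reverse complement of the interferon-stimulated response element core GAAANNGAA, which 32.3% of the promoters of the list and 3.95% of all promoters hold in this window.
Gbp2 promoter, chr3:142620513-142620662, plus strand: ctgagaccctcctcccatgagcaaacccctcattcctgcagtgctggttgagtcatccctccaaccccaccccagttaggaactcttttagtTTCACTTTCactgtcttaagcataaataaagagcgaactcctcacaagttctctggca

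**Figure D3:**
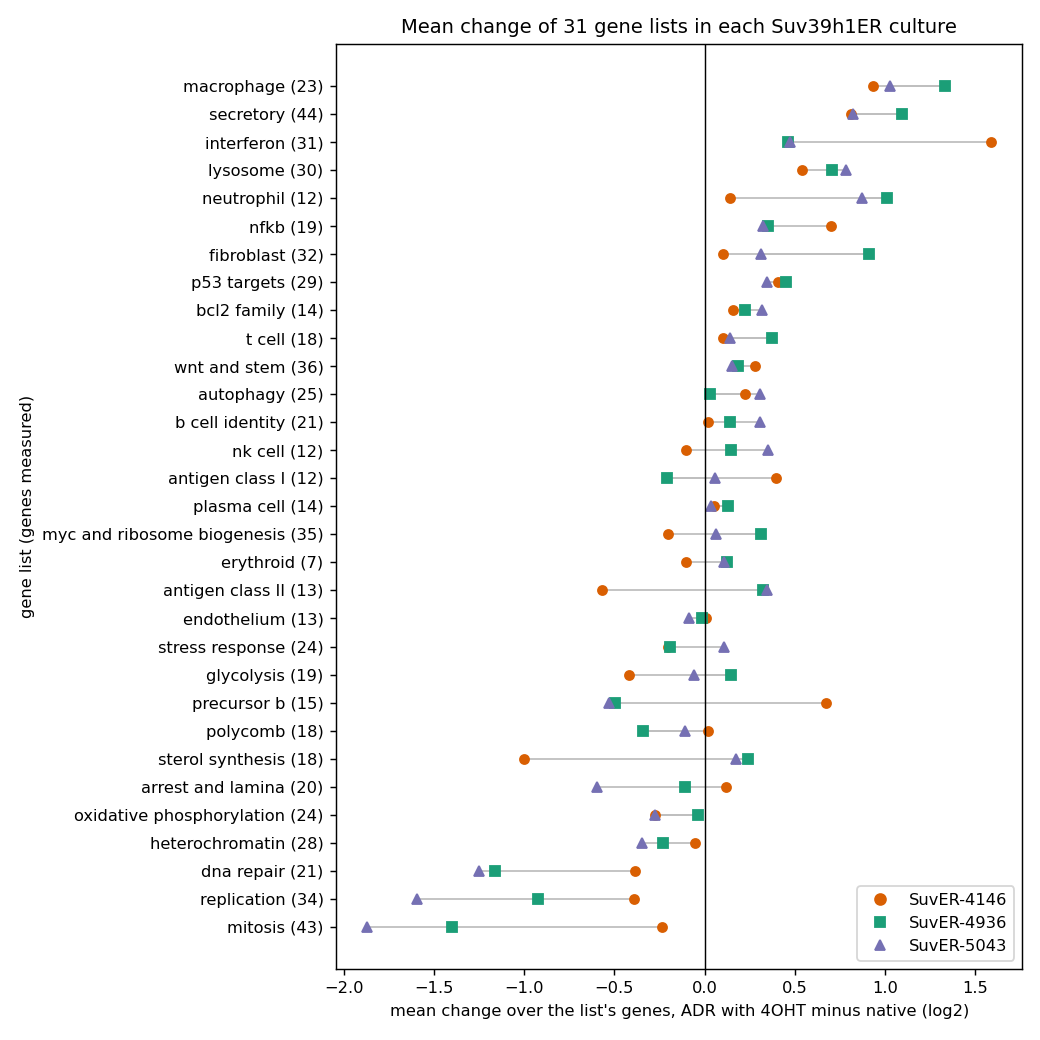
Mean log2 change (ADR with 4OHT minus native) over the measured genes of each of 31 gene lists, with 1 symbol per Suv39h1ER culture. Replication, mitosis and DNA repair lists lie below 0 in all 3 cultures, the lysosome list lies between 0.54 and 0.78, and the interferon list is at 1.59 in SuvER-4146 and at 0.46 and 0.47 in the other cultures.

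Chromatin and metabolic lists held 0 to 2 called genes each, beside 1.38% of all genes that rose and 1.57% that fell. Of 28 heterochromatin genes Asf1a, a histone chaperone, fell, with 8.82, 7.60 and 8.31 in ADR with 4OHT and 9.46, 9.48 and 9.61 in native cells (-1.27 ± 0.26, SE, adjusted p = 0.00912). The native arrays lie within 0.2 of each other, and SuvER-4936 had the lowest treated level. Another probe set of Asf1a changed by -0.086. Dnmt1, the maintenance DNA methyltransferase, changed by -1.03 (adjusted p = 0.0702) and passed without SuvER-4146 (adjusted p = 0.048). None of 18 polycomb genes passed in limma (3 at an unadjusted p under 0.05). Of 36 Wnt and stemness genes Cd44, an adhesion receptor, rose, with 10.74, 10.95 and 10.78 in ADR with 4OHT and 9.10, 9.60 and 9.82 in native cells (1.32 ± 0.24, SE, adjusted p = 0.0055), and the list's median was 0.082. The changes of the 4 Cd44 probe sets ran from -0.075 to 1.51. Of 24 stress response genes Asns, asparagine synthetase, fell by 1.31 (adjusted p = 0.0321). Of 24 respiratory chain genes Sdhb and Ndufb5 fell by 0.57 and 0.48. In all 3 cultures 13 of the 24 were lower and 3 higher, against 19.2% and 17.5% of all genes. In limma 12 of the 24 had an unadjusted p under 0.05. Of 18 sterol synthesis genes Pmvk, phosphomevalonate kinase, fell by 0.98 (adjusted p = 0.0288), and the mean change of this list was -1.0 in SuvER-4146, against 0.24 and 0.18 in the other cultures. Of 35 Myc and ribosome biogenesis genes Mxd1, a Myc antagonist, rose by 1.07 (adjusted p = 0.0489). The changes of its 3 probe sets ran from 0.067 to 1.28. Of these calls Asf1a and Cd44 passed without SuvER-4146. The lists for glycolysis, antigen presentation by class I and class II, and the Bcl2 family held no called gene in limma, with 1, 4, 4 and 4 at an unadjusted p under 0.05, and Bcl2l11 (Bim), a death inducer, came nearest in the last (0.85, adjusted p = 0.061).

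The arrays with ADR alone share their native controls with this comparison, so values are set side by side. ADR alone against native gave 23 called genes (0.126%), 16 higher and 7 lower. Without SuvER-4936, whose ADR array did not match its other arrays, it gave 4, 2 higher and 2 lower. Lyz1 had 11.74, 14.82 and 13.98 with ADR alone, a change of 6.54 from native (adjusted p = 0.000234). H1f4 had 2.68, 2.74 and 2.50 with ADR alone, a change of -2.84 (adjusted p = 3.71e-05), as low as with 4OHT. Mmp13, Lyz2, Ccl3, Lcn2, Cd36 and Ccl9 also passed with ADR alone, at changes of 4.77, 5.38, 3.48, 3.96, 3.70 and 3.54. In SuvER-4146, SuvER-4936 and SuvER-5043, Lyz2 changed by 2.48, 8.70 and 4.98 and Ccl3 by 1.63, 6.08 and 2.74. Lcn2 changed by 1.42, 6.87 and 3.60 and Ccl9 by 1.80, 6.24 and 2.59. In these genes the mismatched SuvER-4936 ADR array gave the largest change. Mmp13 (4.91, 4.97 and 4.44) and Cd36 (3.81, 4.05 and 3.25) were more even. For the genes called with ADR and 4OHT the median change was 0.95 for those that rose, against 0.53 with ADR alone, and -0.88 for those that fell, against -0.38 with ADR alone. These medians favour the contrast that chose the genes.

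ADR with 4OHT was also set against ADR alone. The arrays of this step had r of -0.35 in SuvER-4146 and -0.24 in SuvER-4936 on the lymphoma-marking probe sets, so the agent and the identity of the lymphoma cannot be told apart there. The comparison gave 26 called genes (0.143%), 8 higher and 18 lower, while limma called 1 without SuvER-4936, 2 without SuvER-4146 and 56 without SuvER-5043. Poc1b had 6.19, 5.74 and 5.72 with ADR alone, above all 3 arrays with 4OHT (4.56 to 4.84), a step of -1.17 (adjusted p = 0.0175). Asf1a differed by -1.30 in this step (adjusted p = 0.0499) and by 0.021 between ADR alone and native (adjusted p = 0.987). Between ADR with 4OHT and native, another probe set of Asf1a changed by -0.086. Tk1 had 8.51, 8.13 and 8.89 with ADR alone, near the native levels, and its step of -1.38 did not pass (adjusted p = 0.152). The median step was -0.66 over the replication list, -0.80 over the mitosis list and 0.40 over the lysosome list, against -0.021 over all genes. It was -0.093 over the secretory list, -0.11 over the macrophage list, -0.54 over the fibroblast list and 0.54 over the sterol synthesis list. From native cells, the secretory median was 0.83 with ADR alone, against 0.38 with ADR and 4OHT.

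**Figure D4:**
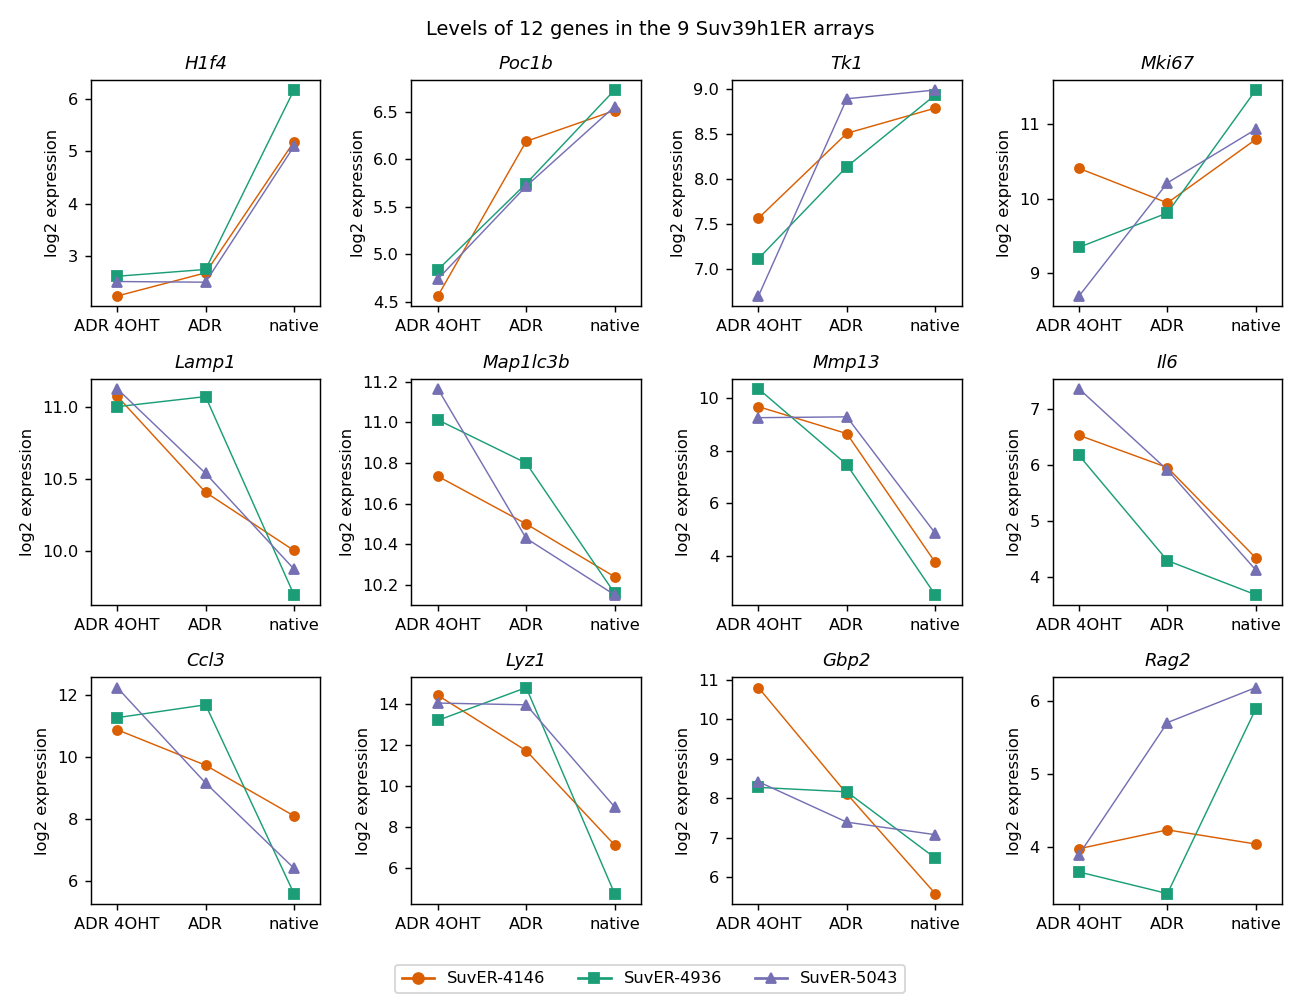
Log2 expression of 12 genes in the 9 Suv39h1ER arrays, with ADR and 4OHT at the left, ADR alone in the middle and native at the right; lines join the arrays labelled as 1 culture. H1f4 is near 2.5 with either treatment, Tk1 is low (6.70 to 7.56) with ADR and 4OHT only, and Gbp2 is highest in SuvER-4146 with ADR and 4OHT (10.80).

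The response was then set against that of WT lymphomas, which share no arrays with it. Both sets of calls use the same estimate of each gene's spread, from the same fit, so they are not independent. Of the 251 genes that rose, 198 (78.9%) also rose with ADR in WT lymphomas, and they were 6.77% of the 2925 genes that rose there. Of the 286 that fell, 234 (81.8%) also fell in WT, 9.13% of the 2564 that fell there. Over all genes tested, 16.1% rose and 14.1% fell in WT. The opposite call was made for 1 gene that rose and 0 that fell. WT lymphomas had more pairs, 14 against 3 cultures, so the numbers of calls are not comparable.

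Genes whose response differed from that of WT numbered 3 (0.0165%). H1f4 changed by -3.03 in the Suv39h1ER cultures and by -0.71 in WT, a difference of -2.32 ± 0.34 (SE, adjusted p = 0.00764). Its native mean was 5.48 in the Suv39h1ER cultures and 4.11 in WT, nearer the dim end of the arrays. Without SuvER-4146 the difference still passed (adjusted p = 0.0291), and without SuvER-4936 it did not (adjusted p = 0.159). Ina, the neurofilament protein internexin, had 5.84, 4.88 and 5.08 in ADR with 4OHT and 3.96, 3.81 and 4.18 in native cells, a rise of 1.28, against 0.019 in WT (difference 1.27 ± 0.22, SE, adjusted p = 0.0437). The rises of its 3 probe sets ran from 0.27 to 1.28. Lyz1 differed by 5.20 ± 0.92 (SE, adjusted p = 0.0437). Without SuvER-4146 neither Ina (adjusted p = 0.313) nor Lyz1 (adjusted p = 0.0926) passed. The WT native mean of Lyz1 was 11.0, above all 3 Suv39h1ER native arrays (4.76 to 9.0), so the cultures began from different levels. The fibroblast list had a median response of 1.88 in WT, with 29 of 32 genes called higher, against 0.26 in the Suv39h1ER cultures.

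Genes whose response differed from that of Suv39h1- lymphomas to ADR numbered 4 (0.022%). They were Poc1b (difference -1.54), H1f4 (-2.52), Lyz1 (6.05) and Mmp13 (5.73). Mmp13 rose by 6.07 in the Suv39h1ER cultures and changed by 0.34 in Suv39h1- lymphomas, a difference that did not pass without SuvER-4146 (adjusted p = 0.0745). The mitosis list had a median of -1.17 in the Suv39h1ER cultures, -1.87 in WT and -0.54 in Suv39h1- lymphomas, and the lysosome list 0.66, 0.68 and 0.32. The differences between these medians were not tested. The counts of differing genes ran from 0 to 6 against WT and from 0 to 15 against Suv39h1- lymphomas as each Suv39h1ER culture was left out. Averaging SuvER-4936 and SuvER-5043 as 1 culture left 0 in both.

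**Figure D5:**
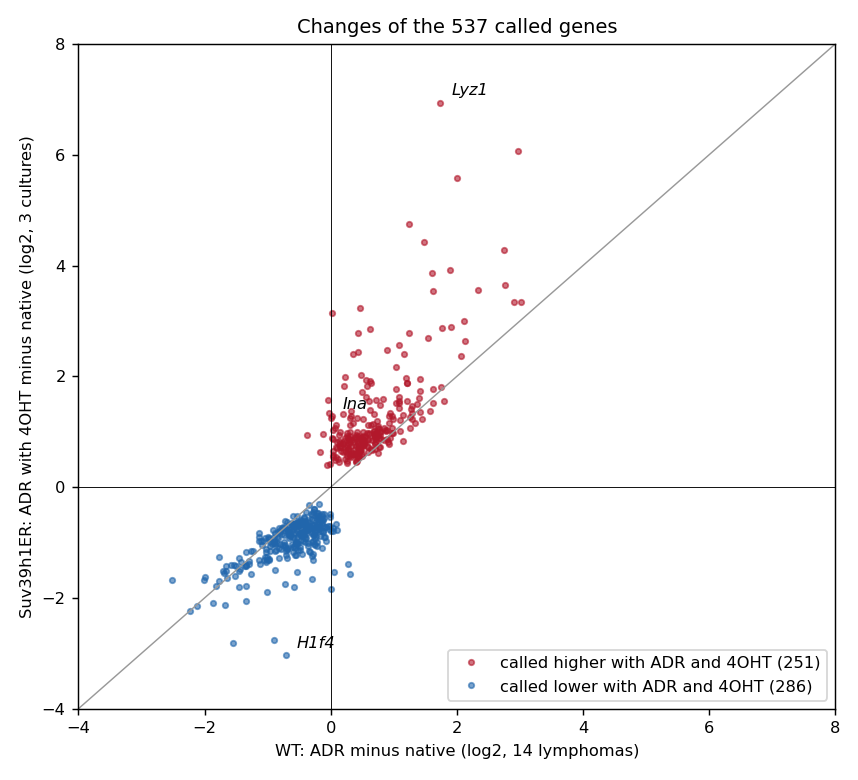
Log2 change of the 537 called genes in the Suv39h1ER cultures (ADR with 4OHT minus native, 3 cultures, vertical axis) against their change in WT lymphomas (ADR minus native, 14 lymphomas, horizontal axis), with genes that rose in red and genes that fell in blue and a grey line of equal change. The genes were chosen for their Suv39h1ER change, and H1f4 (-3.03 against -0.71), Ina and Lyz1 are those whose difference passed the test.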

How the data were processed

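The deposited values are log2 expression per probe set of the Affymetrix mouse array; per the submitters' processing notes the authors used RMA in the oligo package and R 3.5.0. Of 45101 probe sets, 34958 named 1 gene, 932 several and 9211 none here; symbols were updated through Entrez IDs, and each gene was read from its brightest probe set on average across the 47 arrays (18194 genes). limma 3.58.1 (R 4.3.3) fitted all 47 arrays with the 22 cultures as a block and a term for each treatment, with Benjamini-Hochberg adjustment over all genes, and was tested on simulated data. The pairing comes from the titles and the design text; deviations of paired arrays from their group means correlated at -0.099, 0.00052 and 0.070. The genes, lists and tests were chosen with earlier results of these data known. Named genes were up to 12 rises and 12 falls with the largest change among called genes with 1 direction in all 3 cultures, 3 members per list with the smallest p, markers of senescence and driver genes, and genes differing from WT or Suv39h1-; others named within a list are its further called members or its defining markers. Arrays carry no read depth, and their number limits the precision. The 31 lists held 773 genes, 704 measured. Promoters come from the RefSeq table (GRCm38.p6), which held 461 of the 537 called genes. Alternatives were other pairings, samples, probe set rules, filters, normalization and variance models, and, added after seeing the data, averaging SuvER-4936 with SuvER-5043.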

Additional observations from a re-analysis of the deposited data

Results flagged for a closer look

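A handful of genes changed differently in the Suv39h1ER cultures than in other lymphomas, by the interaction term of the model. Against the ADR response of WT lymphomas, H1f4 differed by -2.32 (adjusted p = 0.00764, lower in 3 of 3 cultures), Ina by 1.27 (adjusted p = 0.0437, higher in 3 of 3) and Lyz1 by 5.20 (adjusted p = 0.0437, higher in 3 of 3). Against the ADR response of Suv39h1- lymphomas, Poc1b differed by -1.54 (adjusted p = 0.00959), H1f4 by -2.52 (adjusted p = 0.00959), Lyz1 by 6.05 (adjusted p = 0.036) and Mmp13 by 5.73 (adjusted p = 0.0373). H1f4 and Lyz1 passed with ADR alone too (changes from native of -2.84 and 6.54), and Poc1b was lower with ADR and 4OHT than with ADR alone (-1.17, adjusted p = 0.0175). Without SuvER-4146, H1f4 in both comparisons (adjusted p = 0.0291 against WT and 0.0285 against Suv39h1-), Poc1b (adjusted p = 0.0275) and Lyz1 against Suv39h1- (adjusted p = 0.0409) passed, while Ina (adjusted p = 0.313) and Lyz1 (adjusted p = 0.0926) against WT and Mmp13 against Suv39h1- (adjusted p = 0.0745) did not. None of the 7 differences passed when SuvER-4936 and SuvER-5043 were averaged as 1 culture, where limma called 0 genes in both comparisons (1146 and 1289 genes at an unadjusted p under 0.05).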

How the results depend on the processing

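Of the 120 named genes 57 were called, and no alternative reversed any of them. Fits with no block, a random block, 9 or 6 arrays, no lymphoma 1032 or trend and robust variance keep the same estimated change. Such fits could not reverse a sign. Of the 537 called genes 533 moved the same way in all 3 cultures, so leaving out a culture could reverse few. Of the 57, 28 stayed called with no replicate block, 36 with a random block, 4 with the 9 Suv39h1ER arrays, 0 with 6 arrays, 36 without SuvER-4146, 20 without SuvER-4936, 19 without SuvER-5043 and 17 with SuvER-4936 and SuvER-5043 as 1 culture (an alternative chosen after seeing the data). The 537 genes called for ADR with 4OHT against native became 267 with no replicate block, 12 with 9 arrays, 0 with 6 arrays (2650 at an unadjusted p under 0.05 in limma), 970 with array weights and 58 with the merged cultures, and ran from 90 to 326 as each culture was left out. The 3 differences from WT became 1 with no replicate block, 1 without Suv39h1- lymphoma 1032, 0 without dim genes (972 unadjusted), 0 with the merged cultures (1146 unadjusted) and 0 to 6 as each culture was left out. The 4 differences from Suv39h1- became 0 with no replicate block (1359 unadjusted), 1 with a random block, 2 without lymphoma 1032, 1 with the mean of probe sets, 0 with the merged cultures (1289 unadjusted) and 0 to 15 as each culture was left out. The 26 genes of ADR with 4OHT against ADR became 16 with no replicate block, 60 with a random block, 0 with 9 arrays (2077 unadjusted), 8 without lymphoma 1032, 43 without dim genes, 7 with trend and robust variance, 222 with array weights, 9 with the merged cultures and 1 to 56 as each culture was left out. The 23 genes of ADR against native became 2 with no replicate block, 2 with 9 arrays, 35 with quantile normalization, 57 with array weights, 7 with the merged cultures and 4 to 109 as each culture was left out. Fits on fewer arrays have fewer degrees of freedom; the cause of the other shifts was not tested. The mean changes of the 31 lists moved by more than the spread between cultures in 9 lists without dim genes, in 1 with the mean of probe sets and in 1 with array weights. Levels near 3 lie at the dim end of the arrays, where a fall cannot be followed further.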

Other observations

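Gene families beyond the lists were chosen by symbol after their values were seen, so only counts and values are given, beside 1.38% of all genes that rose and 1.57% that fell. Of 22 genes for subunits and accessory proteins of the vacuolar proton pump, which acidifies lysosomes, 11 rose and 0 fell, with median changes of 0.45, 0.61 and 0.69 in SuvER-4146, SuvER-4936 and SuvER-5043, and 6 rose without SuvER-4146; some of them are also in the lysosome list. Atp6v1e1 had 10.20, 10.31 and 10.42 in ADR with 4OHT and 9.32, 9.46 and 9.62 in native cells (0.84, adjusted p = 0.00586). Of 17 cytosolic aminoacyl-tRNA synthetases, which load amino acids onto tRNAs, 5 fell and 0 rose, and 2 fell without SuvER-4146. Cars had 6.84, 7.05 and 7.20 in ADR with 4OHT and 7.98, 8.65 and 8.20 in native cells (-1.25, adjusted p = 0.006). Psat1, an enzyme of serine synthesis, fell by 1.12 (adjusted p = 0.006), and Pck2, the mitochondrial PEP carboxykinase, by 1.54 (adjusted p = 0.00212).

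Of 76 mitochondrial ribosomal protein genes 8 fell and 0 rose (median -0.27), and 2 fell without SuvER-4146, against 1 that fell of 49 cytosolic ribosomal protein genes (median -0.043). Of 8 subunits of augmin, which branches spindle microtubules, 3 fell, and of 21 centromere protein genes 4 fell (medians -0.85 and -0.88), with 1 and 2 without SuvER-4146. None of 39 proteasome subunit genes passed in limma (7 at an unadjusted p under 0.05, median -0.045). Fth1, the ferritin heavy chain that stores iron, had 14.06, 14.26 and 14.32 in ADR with 4OHT and 13.41, 12.71 and 13.04 in native cells (1.16, adjusted p = 0.000734). Tinf2, a protein of the telomere-capping shelterin complex, had 6.66, 6.67 and 5.95 in ADR with 4OHT and 7.83, 8.42 and 8.30 in native cells (-1.76, adjusted p = 0.00171).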
